A study of Mus musculus with 4 samples.

Results

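Integrins are the main receptors by which animal cells hold on to the extracellular matrix. Each is a pair of 1 alpha and 1 beta subunit that is assembled inside the cell before it reaches the surface, so a subunit whose partner is missing is largely retained and degraded. The alpha subunit sets most of the ligand choice, and the tail of the beta subunit links to the actin cytoskeleton through talin and kindlin. In melanoma, alphaVbeta3 is known as a marker of invasive growth in human tumours, and alpha4beta1 and alpha5beta1 as receptors for VCAM-1 and fibronectin. The 10 integrin genes described here are 3 beta subunits (Itgb1, Itgb3 and Itgb5) and 7 alpha subunits (Itgav, Itga3, Itga4, Itga5, Itga6, Itga7 and Itga9). They were chosen by name from a count table of 53465 genes, each symbol matched 1 gene of the annotation, and all 10 were among the 12320 genes that passed the filter on low counts.

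The counts came from B16-F10 cells, a mouse melanoma line derived from a pigmented skin tumour and selected for forming colonies in the lung. Fluorescent cells were infused into zebrafish, recovered and grown in culture in IMDM with serum, and polyA RNA of the cultures was sequenced. The extravasation label is Y in 2 libraries, called extravasated, and N in 2 libraries, called not extravasated, which the series names as its control. The growth text attached to all 4 libraries describes cells that left the vessel as clusters by angiopellosis, so the groups rest on the extravasation label and the source name alone. All 4 libraries share the cell line, the infusion into fish and the medium. The labels name no genetic change and do not say how many fish or cultures stand behind a library, so p-values measure the spread between these libraries, which may be technical. One number in the titles marks both extravasated libraries and another both controls; its meaning is not given and its part cannot be told apart from that of extravasation.

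Totals ran from 11705904 to 19674733 counts per library. All 8 melanocytic marker genes were well above background, with a summed level of 23928 to 30945 CPM (read counts over the TMM-scaled library total, as CPM). Summed levels of the other marker lists were 0.174 to 0.984 CPM for endothelium (4 of 6 genes without a read, Cdh5 and Kdr among them), 0 to 0.116 CPM for platelets (3 of 4 genes without a read), 4.58 to 5.38 CPM for leukocytes (Ptprc without a read), 0.637 to 1.16 CPM for epithelium and 8.51 to 11.3 CPM for fibroblasts. Of all tested genes, 45.1% differed between the groups, 25.9% lower and 19.1% higher in extravasated cells (quasi-likelihood test of edgeR, called where the p adjusted by Benjamini-Hochberg was under 0.05). The fold change followed the base composition of transcripts across 11126 nuclear coding genes, with a Spearman rho of 0.743 with the GC content of the principal transcript. Results called below as corrected come from a fit with that trend, and the one with transcript length, entered as an offset. It is described after the members. In bulk RNA, fewer cells of a type and less RNA per cell cannot be told apart.

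The tails of these subunits carry the motifs that make an integrin work. The coding stretches below run 5′ to 3′ to the last codon before the stop, from the GENCODE M21 principal transcripts (GRCm38). In the beta subunits the capitals mark the codons of the NPxY motif bound by talin and of the NPxY or NxxY motif bound by kindlin.

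Itgb1 (codons 774 to 798, motifs NPIY and NPKY): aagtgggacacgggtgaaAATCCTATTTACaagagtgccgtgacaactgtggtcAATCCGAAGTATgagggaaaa
Itgb3 (codons 763 to 787, motifs NPLY and NITY): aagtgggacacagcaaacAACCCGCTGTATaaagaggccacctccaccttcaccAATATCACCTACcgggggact
Itgb5 (codons 765 to 799, motifs NPLY and NKSY): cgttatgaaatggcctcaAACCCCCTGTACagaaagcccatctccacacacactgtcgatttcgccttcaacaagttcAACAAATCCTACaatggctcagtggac

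In the alpha subunits the capitals mark the GFFKR motif next to the membrane, which holds the alpha and beta tails together. It was found in 6 of the 7 alpha subunits, and Itga9 had GFFRR in its place. The 4 most abundant alpha mRNAs of the control libraries whose motif letters are the same are shown.

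Itgav (codons 1015 to 1044): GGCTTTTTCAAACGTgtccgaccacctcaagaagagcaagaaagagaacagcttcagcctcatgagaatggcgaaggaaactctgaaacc
Itga4 (codons 1003 to 1032): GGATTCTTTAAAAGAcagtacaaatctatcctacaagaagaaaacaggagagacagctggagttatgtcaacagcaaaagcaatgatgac
Itga5 (codons 1028 to 1053): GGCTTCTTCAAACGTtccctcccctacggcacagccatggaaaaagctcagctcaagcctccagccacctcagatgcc
Itga6 (codons 1040 to 1073): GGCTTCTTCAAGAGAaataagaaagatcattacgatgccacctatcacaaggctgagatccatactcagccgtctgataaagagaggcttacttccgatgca

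The same 5 letters were written with 4 G or C bases of 15 in Itga4, 6 in Itgav and 7 in Itga5 and Itga6. Over the whole stretch shown, GC content was 37.8% in Itga4, 44.1% in Itga6, 47.8% in Itgav and 57.7% in Itga5. In the beta stretches it was 45.3% in Itgb1, 47.6% in Itgb5 and 53.3% in Itgb3. Over the whole coding sequence, the GC content at the third codon position was 41.1% in Itgb1, 47.6% in Itga4, 51.7% in Itga6 and 52.3% in Itgav. In the other 6 members it lay between 65.0 and 70.6%. The short stretches did not always follow this order. The stretch of Itgb5 was near that of Itgb1, and that of Itga9, not shown, had 46.2% GC, below Itgav. The beta stretches start shortly before the first motif, so they hold only the end of the tail.

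Levels were first compared between subunits within a library, per length, as TPM (counts over the principal transcript length, scaled to 1 total in every library). Itgb1, the shared partner of all 7 alpha subunits here, was by far the most abundant integrin mRNA. It stood at 476.7 and 438.8 TPM in not extravasated libraries 1 and 2, and at 200.4 and 164.0 TPM in extravasated libraries 1 and 2. This put it above 92.8 to 97.8% of tested genes in every library. In the controls the order below it was Itga6 (50.2 ± 4.92 TPM; SD, n = 2), Itga5 (46.4 ± 3.97), Itgb3 (38.0 ± 5.54), Itgav (32.1 ± 3.02), Itgb5 (29.0 ± 10.2), Itga4 (24.2 ± 16.1) and Itga9 (22.9 ± 4.94). The ranges of neighbours in this order overlapped except between Itgb1 and Itga6 and between Itga5 and Itgb3. In extravasated cells the TPM order was Itgb1, Itga5 (55.5 ± 2.55), Itgb3 (39.2 ± 4.11), Itgb5 (27.0 ± 0.73), Itga6 (18.6 ± 2.77), Itga9 (17.2 ± 3.15), Itgav (8.77 ± 0.042) and Itga4 (6.45 ± 0.368). There the ranges of Itga6 and Itga9 overlapped and the other neighbours among these 8 were separate. The place of Itga6 depended on the length used. With merged exon lengths the control order below Itgb1 was Itga5 (60.1 TPM), Itgb3 (54.3), Itgb5 (39.0) and Itga6 (34.9). Itga3 and Itga7 stood last in both groups, between 0.467 and 1.06 TPM in all 4 libraries.

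**Figure D1:**
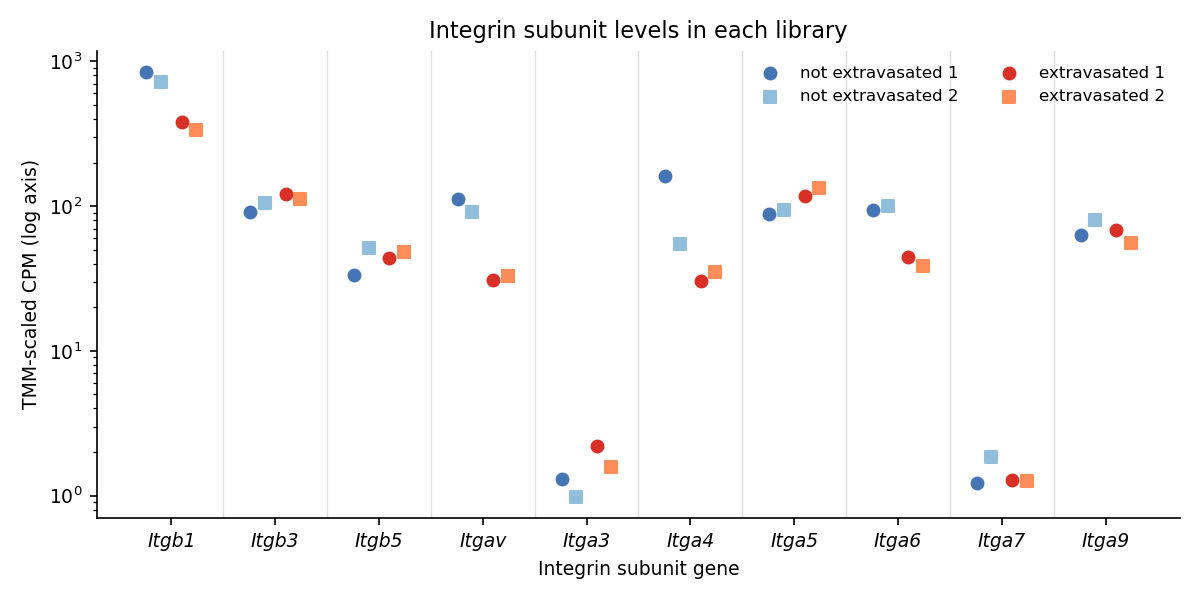
TMM-scaled CPM of each integrin subunit gene on a log axis, 1 point per library (circles and squares tell the 2 libraries of a group apart). Itgb1, Itgav, Itga4 and Itga6 are lower in both extravasated libraries, while Itga3 and Itga7 sit near 1 CPM in all 4. CPM is not scaled by transcript length, so heights are compared within a gene.

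Of the 10 subunits, 4 fell and 1 rose in extravasated cells, beside 25.9% and 19.1% of all tested genes, and 5 did not pass the test. After correction with the principal transcript, Itga6 alone was called. The median log2 fold change was -0.25 over the 10 members and -0.02 over all tested genes. CPM of the groups did not overlap for 4 members that were lower and 3 that were higher in extravasated cells, where 39% and 37.3% of all tested genes were separated in these directions. The sign of every member's fold change was the same with TMM, RLE or upper quartile factors and with unscaled totals.

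Among the beta subunits, Itgb1 fell and Itgb3 and Itgb5, the partners of alphaV, did not pass the test. Itgb1 (ENSMUSG00000025809.15, GRCm38 chromosome 8, 128685654 to 128733200, plus strand) stood at 844.4 and 725.7 CPM in the controls and at 382.2 and 333.4 CPM in extravasated cells. Both extravasated libraries were below both controls. The log2 fold change was -1.13 ± 0.133 (SE; edgeR, adjusted p = 0.00117), a 2.19-fold fall, and -1.23 to -0.996 with 1 library left out, called each time. Corrected, it was -0.33 and not called (edgeR, adjusted p = 0.0886). Itgb3 (ENSMUSG00000020689.4, chromosome 11, 104608000 to 104670476, plus strand), the beta subunit of the vitronectin receptor alphaVbeta3, stood at 91.6 and 105.1 CPM in the controls and at 121.7 and 111.8 CPM in extravasated cells. Its CPM groups were separate with extravasated cells higher, its TPM ranges overlapped, and the log2 fold change of 0.25 ± 0.134 (SE) did not pass (edgeR, adjusted p = 0.167). Itgb5 (ENSMUSG00000022817.14, chromosome 16, 33829665 to 33949338, plus strand), which forms another vitronectin receptor with alphaV, stood at 33.2 and 51.4 CPM in the controls and at 43.5 and 48.1 CPM in extravasated cells. The control libraries lay on either side of the extravasated ones, and its log2 fold change was 0.11 ± 0.216 (SE; edgeR, adjusted p = 0.705). Without not extravasated library 2 it was 0.47 and called (edgeR, adjusted p = 0.0349), and without not extravasated library 1 it was -0.17.

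Itgav, the alpha subunit shared by Itgb1, Itgb3 and Itgb5 in receptors for vitronectin and other RGD-bearing ligands, fell 3.19-fold. Itgav (ENSMUSG00000027087.11, chromosome 2, 83724397 to 83806916, plus strand) stood at 112.1 and 91.7 CPM in the controls and at 30.8 and 33.1 CPM in extravasated cells. The groups were far apart relative to the spread within them. The log2 fold change was -1.67 ± 0.154 (SE; edgeR, adjusted p = 0.000719), and with 1 library left out it was -1.80 to -1.52 and called each time. Corrected, it was -0.46 and just missed the threshold (edgeR, adjusted p = 0.0539). Per length, the ratio of Itgb3 to Itgav mRNA was 0.996 and 1.40 in the controls and 4.82 and 4.12 in extravasated cells. The ratio of Itgb5 to Itgav was 0.635 and 1.21 in the controls and 3.03 and 3.13 in extravasated cells. In these TPM ratios, both beta mRNAs exceeded Itgav in every extravasated library, whereas in the controls they lay between 0.635 and 1.40 times its level.

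Itga5 was the 1 subunit that rose. It encodes the alpha subunit of alpha5beta1, the main receptor for fibronectin. Itga5 (ENSMUSG00000000555.7, chromosome 15, 103344286 to 103366763, minus strand) stood at 88.8 and 93.6 CPM in the controls and at 117.6 and 133.7 CPM in extravasated cells. Both extravasated libraries were above both controls. The log2 fold change was 0.46 ± 0.130 (SE; edgeR, adjusted p = 0.0232), a 1.38-fold rise, and without extravasated library 2 it was 0.41 and not called (edgeR, adjusted p = 0.15). The rise was not called after correction with any of the 3 transcript choices, at 0.16, 0.15 and 0.08 (edgeR, adjusted p = 0.391, 0.421 and 0.668).

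Itga4, whose product pairs with beta1 to bind VCAM-1 and fibronectin, had the lowest fold change of the 10 with all 4 libraries, and its controls spread widely. Itga4 (ENSMUSG00000027009.18, chromosome 2, 79255426 to 79333123, plus strand) stood at 161.6 and 54.4 CPM in the controls and at 30.2 and 34.9 CPM in extravasated cells. The groups were separate, but the controls differed from each other more than the lower of them did from the extravasated libraries. The log2 fold change was -1.72 ± 0.507 (SE; edgeR, adjusted p = 0.0414). It was -0.74 without not extravasated library 1 and -2.30 without not extravasated library 2, both called. Without extravasated library 1 or 2 it was -1.51 and -1.78 and not called (edgeR, adjusted p = 0.205 and 0.193). The call was also lost with RLE or upper quartile factors, without a filter and with the title suffix as a term, and the corrected value was -0.02 (edgeR, adjusted p = 0.973). Exons of Itga4 share 1124 bases with Cerkl on the opposite strand. Cerkl had 195 counts over all 4 libraries, and the strand setting of the counting is not given in the sources used here.

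Of the laminin receptor subunits, Itga6 fell, and Itga3 and Itga7 had few reads. Itga6, whose product pairs with beta1 or beta4, stood at 93.5 and 100.3 CPM in the controls and at 44.4 and 38.3 CPM in extravasated cells (ENSMUSG00000027111.15, chromosome 2, 71745616 to 71858416, plus strand). The controls were close to each other and both lay far above the extravasated libraries. The log2 fold change was -1.23 ± 0.141 (SE; edgeR, adjusted p = 0.0011), a 2.35-fold fall, and -1.28 to -1.09 with 1 library left out, called each time. Itga3 (ENSMUSG00000001507.16, chromosome 11, 95044474 to 95076801, minus strand) and the muscle-type laminin receptor subunit Itga7 (ENSMUSG00000025348.9, chromosome 10, 128933818 to 128958282, plus strand) were near the limit of what could be counted. Itga3 had 15 and 17 reads in the controls and 29 and 30 in extravasated cells. Itga7 had 14 and 32 reads in the controls and 17 and 24 in extravasated cells. Neither passed the test, with log2 fold changes of 0.73 ± 0.434 and -0.29 ± 0.43 (SE; edgeR, adjusted p = 0.205 and 0.614). These errors are about as large as the fold change of Itga5.

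Itga9, whose product pairs with beta1 to bind tenascin-C, osteopontin and VCAM-1, did not pass the test. Itga9 (ENSMUSG00000039115.13, chromosome 9, 118606690 to 118901003, plus strand) stood at 63.2 and 80.3 CPM in the controls and at 68.2 and 56.0 CPM in extravasated cells. The groups overlapped, and the difference on the log2 scale was -0.21 ± 0.17 (SE, adjusted p = 0.342 by edgeR).

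The make-up of the alpha subunit pool was then set out per length. Itga5 made up 24.1 and 28.4% of the summed TPM of the 7 alpha subunits in the controls and 48.7 and 54.2% in extravasated cells. Itga6 made up 25.8 and 30.9% in the controls and 18.7 and 15.8% in extravasated cells. The share of Itgav was 18.9 and 17.3% in the controls and 7.93 and 8.33% in extravasated cells. Itga4 took 19.7 and 7.40% in the controls and 5.62 and 6.35% in extravasated cells, and the shares of Itga9 overlapped between the groups, from 10.7 to 17.6%. Of these 5 subunits, Itga5 had the largest share in both extravasated libraries, while in the controls Itga6 and Itga5 were close. With merged exon lengths the control shares were 30.5 and 35.6% for Itga5 and 17.6 and 20.8% for Itga6, so Itga5 had the largest share in all 4 libraries. Among the beta subunits, Itgb1 made up 89.5 and 84.9% in the controls and 74.5 and 72.0% in extravasated cells, and Itgb3 made up 6.40 and 8.11% in the controls and 15.6 and 15.9% in extravasated cells. The summed alpha TPM was 0.379 and 0.396 times that of Itgb1 in the controls and 0.550 and 0.644 times in extravasated cells. Beta1 mRNA thus exceeded that of these 7 alpha partners together in every library. With 2 libraries against 2, an exact permutation test cannot give a two-sided p below 0.33, so these shares and ratios carry no test. They describe mRNA and not assembled receptors.

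**Figure D2:**
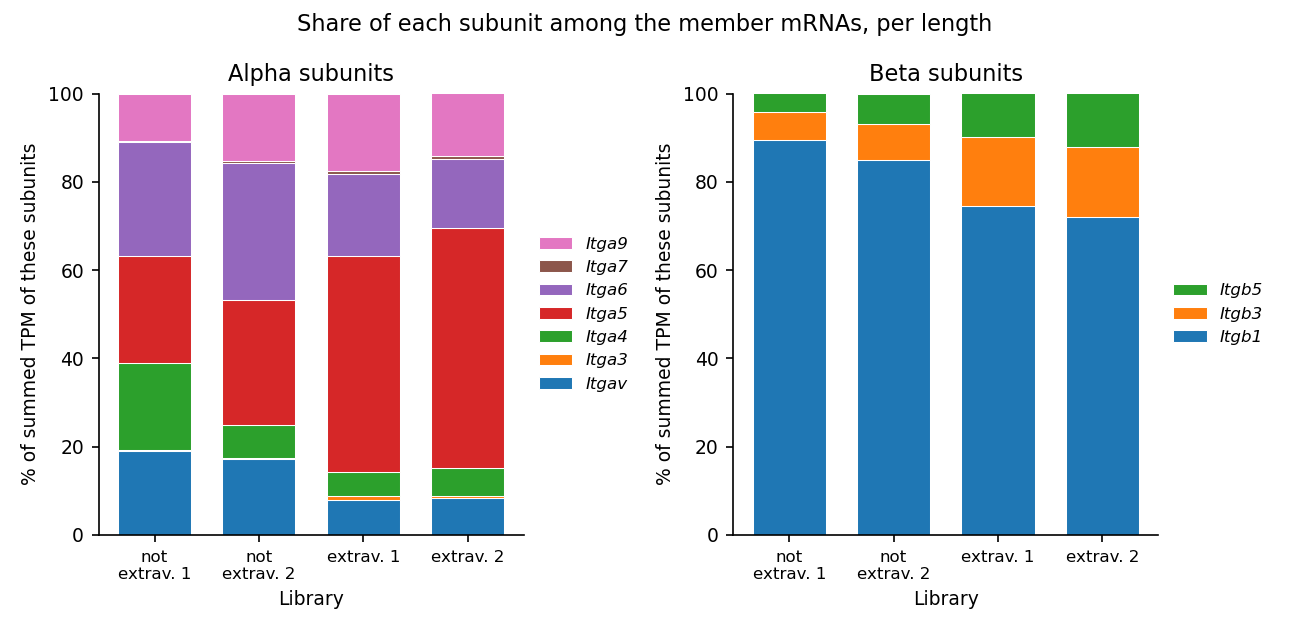
Share of each subunit in the summed TPM of the 7 alpha subunits (left) and of the 3 beta subunits (right), 1 bar per library. Itga5 takes 48.7 and 54.2% of the alpha bars in the extravasated libraries against 24.1 and 28.4% in the controls, and Itgb1 takes over 70% of each beta bar.

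Other partners of these subunits were scarce, as was seen after the values were known. Itgb4, the other partner of alpha6, stood at 0.759 to 1.43 TPM over the 4 libraries, and Itga2b, the platelet partner of beta3, at 0.690 to 1.17 TPM. Itgb7, the other partner of alpha4, stood at 0.0497 to 0.348 TPM, and Itgb8, which pairs with alphaV, at 0 to 0.245 TPM. Itgb6, also a partner of alphaV, had no read in any library, where a count of 0 allows up to 0.158 to 0.260 CPM (3 counts per library, counting error only). Among the 16 integrin subunits outside the 10, 6 passed the filter, and Itga1 was the 1 gene of the 16 with a mean of 10 CPM or more in either group (11.7 CPM in the controls). By edgeR 2 of these 6 fell and 0 rose, where 25.9% and 19.1% of all tested genes did (1 higher at an unadjusted p under 0.05; DESeq2 called 1 lower and 0 higher, limma-voom 2 and 0). The collagen receptor subunit Itga1 fell from 14.9 and 8.51 CPM to 2.95 and 4.0 CPM, a log2 fold change of -1.73 (edgeR, adjusted p = 0.00662). Itga2, another collagen receptor subunit, had a log2 fold change of -2.04 (edgeR, adjusted p = 0.0339) at 1.30 CPM or less. After the GC and length correction described further on, edgeR called 0 of the 6 in either direction (0 also at an unadjusted p under 0.05), with Itga1 at -0.16 and Itga2 at -0.87 (adjusted p = 0.72 and 0.354). Leaving out 1 library changed the number called lower among them. It was smaller without either extravasated library, where fewer of all tested genes were called too.

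The integrin fold changes lined up with the base composition of the transcripts. The 4 subunits that fell had the 4 lowest GC contents of the 10, from 41.1% in Itga4 to 48.9% in Itga6, and the other 6 lay between 51.6 and 57.9%. Over the 10 members the log2 fold change and transcript GC content had a Spearman rho of 0.90, a description over genes that share the same 4 libraries. A smooth of each library's deviation on transcript GC content and length, fitted over all tested genes, gave the difference that a gene of the same composition had on average. For Itga4 this trend value was -1.59 on the log2 scale, beside a fold change of -1.72. It was -1.20 for Itgav, beside -1.67, and -0.80 for Itgb1, beside -1.13. For Itga6 the trend value was -0.30, beside a fold change of -1.23. For Itga5 it was 0.30, beside 0.46. The trend also separated the control libraries from each other, with a log2 deviation of 1.07 in library 1 and 0.52 in library 2 at the composition of Itga4, and -0.80 and -0.79 in the extravasated libraries. Whether the trend belongs to the cells or to the making of the libraries was not tested.

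**Figure D3:**
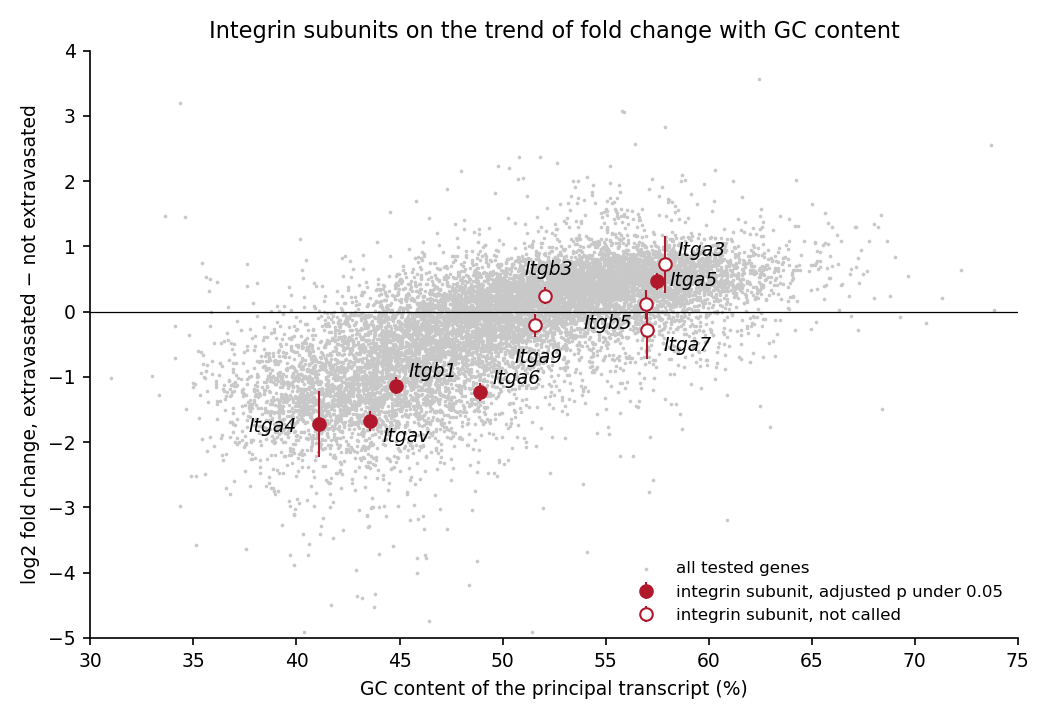
log2 fold change (extravasated minus not extravasated) against the GC content of the principal transcript for all tested genes (grey; 8 of 12307 lie outside the axes) and the 10 integrin subunits (red outline, filled where the adjusted p is under 0.05, bars SE). Itga4, Itgav and Itgb1 lie within the falling cloud at low GC content, and Itga6, at 48.9% GC, lies below most genes of like composition.

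With the trend entered as an offset, 1 of the 10 subunits fell, beside 5.8% of all tested genes, and 0 rose, beside 8.24% (0 higher at an unadjusted p under 0.05). Itga6 was the subunit that kept its call, at -0.93 ± 0.122 on the log2 scale (SE, adjusted p = 0.00677 by edgeR). It was also called with the longest coding transcript (-0.97, adjusted p = 0.00662) and with merged exons (-0.53, adjusted p = 0.0293). With the longest coding transcript 2 fell and 0 rose, beside 5.46% and 8.08% of all tested genes, and with merged exons 3 fell and 0 rose, beside 6.62% and 10.4% (0 higher at an unadjusted p under 0.05 in both). The merged exons of Itga6 hold 9025 nucleotides at 45.2% GC, against 4310 at 48.9% in the principal transcript. Without extravasated library 1 or 2 the corrected value of Itga6 was -0.96 and -0.89 and not called. These 2 fits called few of all tested genes. Itgav had a corrected value of -0.46 ± 0.131 on the log2 scale (SE, adjusted p = 0.0539 by edgeR) and was called with the longest transcript (-0.48, adjusted p = 0.0486) and with merged exons (-0.62, adjusted p = 0.0214). Itgb1 had -0.33 ± 0.113 (SE; edgeR, adjusted p = 0.0886) and was called with merged exons alone of the 3 transcript choices (-0.48, adjusted p = 0.0307). Itga4 stood at -0.02 ± 0.33 and Itga5 at 0.16 ± 0.115 (SE; edgeR, adjusted p = 0.973 and 0.391), and neither was called with any of the 3 choices. Itgb3 stood at 0.30 and Itgb5 at -0.27, neither called. The corrected count depended on single libraries. Without not extravasated library 1 it was 3 lower (Itgav, Itga6 and Itgb5) and 1 higher (Itga4), with 27.9% of all genes called in either direction. Without not extravasated library 2 it was 4 lower (Itgb1, Itgav, Itga4 and Itga6) and 1 higher (Itgb3), with 18.6% of all genes called, beside 14% with all 4 libraries.

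**Figure D4:**
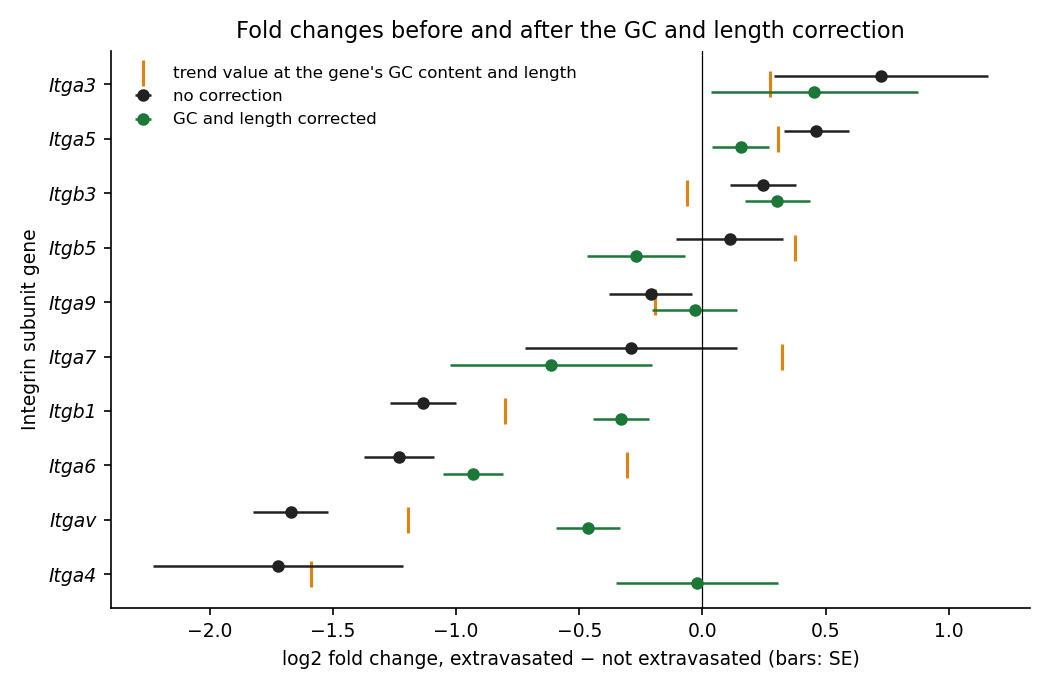
log2 fold change of each integrin subunit with its SE before (black) and after (green) the GC and length correction, with the value of the trend at the gene's own composition (orange tick). The corrected value of Itga6 is -0.93, those of Itgav and Itgb1 are -0.46 and -0.33, and that of Itga4 is -0.02.

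Some of the shift in subunit make-up was seen after the same correction with the principal transcript, applied to TPM after the data had been seen. Corrected shares were not computed with the other transcript choices. The corrected share of Itga5 in the alpha pool was 33.1 and 33.9% in the controls and 42.7 and 44.5% in extravasated cells. The corrected share of Itga6 was 28.4 and 30.2% in the controls and 18.7 and 17.3% in extravasated cells. Both were separate between groups. The corrected TPM of Itga5 itself overlapped, at 48.4 and 54.9 in the controls and 49.7 and 50.1 in extravasated cells. The corrected share of Itga4 overlapped between the groups, and that of Itgav was 14.1 and 13.5% against 10.8 and 12.4%. In the beta pool the corrected share of Itgb1 was 85.9 and 80.5% in the controls and 79.0 and 79.1% in extravasated cells, a smaller difference than before. That of Itgb3 was 8.02 and 9.85% against 13.5 and 12.9%, and that of Itgb5 overlapped. The corrected ratio of Itgb3 to Itgav was 1.58 and 1.93 in the controls and 3.38 and 2.68 in extravasated cells, and that of Itgb5 to Itgav overlapped. Relative to Itgb1, corrected Itga5 TPM was 0.139 and 0.159 in the controls and 0.199 and 0.218 in extravasated cells. The corrected ratio of the summed alpha subunits to Itgb1 overlapped between the groups, at 0.419 and 0.471 against 0.467 and 0.489.

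Ligand genes of these receptors were called in both directions. Of 29 ligand genes, 14 were tested, 2 rose and 2 fell, where 19.1% and 25.9% of all tested genes did, with a median log2 fold change of -0.15. Fn1, the fibronectin bound by alpha5beta1, alpha4beta1 and alphaV receptors, stood at 147.0 and 142.3 CPM in the controls and at 114.5 and 123.8 CPM in extravasated cells, with a log2 fold change of -0.28 that did not pass (edgeR, adjusted p = 0.0974). The laminin subunit Lamb1 and the basement membrane linker Nid1 fell, with log2 fold changes of -0.48 and -0.68 (edgeR, adjusted p = 0.0347 and 0.0241). Mfge8, a secreted RGD protein bound by alphaVbeta3 and alphaVbeta5, and Vwf rose with 0.57 and 1.30 (edgeR, adjusted p = 0.0167 and 0.0429). Vtn, Vcam1 and Tnc, which encode vitronectin, VCAM-1 and tenascin-C, stayed at or below 0.174 CPM in every library. Of the 4 called ligands, Vwf kept its call after correction (1.35, adjusted p = 0.0425 by edgeR). Lamb1 stood at -0.48 as before (adjusted p = 0.0569 by edgeR), Nid1 at -0.42 and Mfge8 at 0.10, none of them called. With the GC correction alone edgeR called 0 ligands higher (0 also at an unadjusted p under 0.05) and 4 lower, so Vwf was not called there. That fit called 17.9% of all tested genes in either direction. Ligand counts grew when either control was left out and shrank when either extravasated library was. The share of all tested genes called moved the same way.

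Genes that activate integrins or link them to actin moved in both directions. Of 27 such genes, 25 were tested, 11 rose and 5 fell, where 19.1% and 25.9% of all tested genes did, with a median log2 fold change of 0.21. Tln1, the talin that binds the first tail motif of the beta subunit, rose from 517.5 and 436.7 CPM to 701.2 and 776.5 CPM, a log2 fold change of 0.63 (edgeR, adjusted p = 0.00731). Fermt2, the kindlin that binds the other motif, fell from 187.4 and 182.3 CPM to 107.3 and 87.4 CPM, a log2 fold change of -0.93 (edgeR, adjusted p = 0.00257). Ilk, which forms a complex with parvins and PINCH proteins at the tail, rose with 0.65, while Lims1, which encodes PINCH-1 of that complex, fell with -1.56 (edgeR, adjusted p = 0.00519 and 0.00152). Rap1b, a small GTPase that recruits talin, fell with -1.01, and Ptk2, the focal adhesion kinase, with -0.72 (edgeR, adjusted p = 0.00167 and 0.0093). After correction 4 rose and 1 fell, beside 8.24% and 5.8% of all tested genes. Tln1 (0.62) and Lims1 (-1.05) kept their call with the principal transcript, Tln1 also with the longest one (0.62) but not with merged exons (0.41), and Lims1 with neither (-0.32 and -0.43). Fermt2 (-0.31), Ilk (0.21), Rap1b (0.13) and Ptk2 (-0.33) lost it with the principal transcript, and the other corrected rises, named after their values were seen, were Tln2, Parva and Flna. With the GC correction alone edgeR called 0 of these genes higher and 1 lower (6 higher and 5 lower at an unadjusted p under 0.05). That fit called 17.9% of all tested genes in either direction. With either extravasated library left out, fewer of these genes were called, and fewer of all tested genes too.

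Genes that switch integrins off or move them through endosomes were divided as well. Of 20 such genes, 17 were tested, 6 rose and 6 fell, where 19.1% and 25.9% of all tested genes did, with a median log2 fold change of -0.27. Krit1, whose product binds the beta1 inhibitor ICAP-1, fell from 53.1 and 29.0 CPM to 9.92 and 9.16 CPM, a log2 fold change of -2.10 (edgeR, adjusted p = 0.00316). Rab5a, an early endosome GTPase, fell with -1.34 (edgeR, adjusted p = 0.00204). Dok1, which competes with talin for beta tails, rose with 0.93, and Snx17, which returns beta1 integrins from endosomes to the surface, rose with 0.74 (edgeR, adjusted p = 0.00366 and 0.00435). Ehd1 and Arf6, both of endosomal recycling, rose with 0.83 and 0.50 (edgeR, adjusted p = 0.00251 and 0.0123). After correction 4 rose and 2 fell, beside 8.24% and 5.8% of all tested genes. With the principal transcript Krit1 (-0.96) and Ehd1 (0.42) kept their call. Rab5a (-0.35), Dok1 (0.42), Snx17 (0.35) and Arf6 (-0.07) lost it, Arf6 with a turned sign. With merged exons 1 rose and 0 fell (3 lower at an unadjusted p under 0.05), beside 10.4% and 6.62% of all tested genes. The rise was Commd3 (0.80), named after its value was seen, and Krit1 (-0.41) and Ehd1 (0.37) were not called there. With the GC correction alone 3 rose and 2 fell, where 17.9% of all tested genes were called in either direction. The other calls with the principal transcript, named after their values were seen, were Rab21, Rab11a, Itgb1bp1 and Numb. Rab21 and Rab11a turned from -0.58 and -0.63 to 0.54 and 0.51, called before and after correction (edgeR, adjusted p = 0.0303 and 0.0453 after it). Itgb1bp1, which encodes ICAP-1, rose with 0.49 before and 0.89 after correction (edgeR, adjusted p = 0.0388 and 0.0128). Numb moved from -0.45, not called, to -0.77 (edgeR, adjusted p = 0.0363 after correction). None of them was called with merged exons (Rab21 0.20, Rab11a 0.45, Itgb1bp1 0.50, Numb -0.48). When either extravasated library was left out, fewer genes of this list were called, and fewer of all tested genes too.

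Among 16 membrane proteins that associate with integrins, 15 were tested, 6 rose and 4 fell, where 19.1% and 25.9% of all tested genes did, with a median log2 fold change of 0.36. The tetraspanin Cd151, which binds laminin-binding integrins directly, rose from 204.7 and 203.5 CPM to 305.3 and 337.1 CPM, a log2 fold change of 0.65 (edgeR, adjusted p = 0.0047). The tetraspanins Tspan4 and Cd63 rose with 0.88 and 0.55, and Slc3a2, the CD98 heavy chain that binds beta1 tails, with 0.74 (edgeR, adjusted p = 0.00302, 0.00705 and 0.00312). The tetraspanin Cd9 fell with -0.65 and Cav1, the caveolin that is associated with beta1 integrins, with -1.48 (edgeR, adjusted p = 0.0115 and 0.00524). After correction edgeR called 0 of the 15 in either direction, where 8.24% of all tested genes rose and 5.8% fell. At an unadjusted p under 0.05, 3 were higher and 1 lower. With merged exons edgeR called 1 higher and 1 lower, beside 10.4% and 6.62% of all tested genes. Fewer of these membrane proteins were called when either extravasated library was left out, where fewer of all tested genes were called too.

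**Figure D5:**
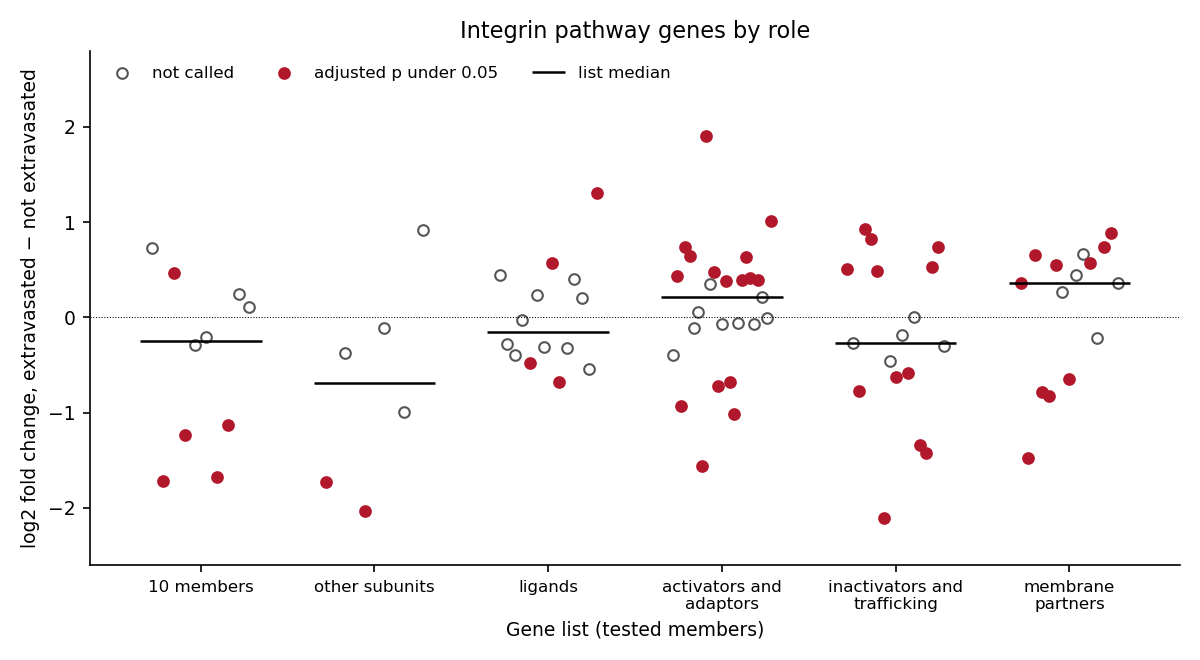
log2 fold change (extravasated minus not extravasated) of each tested gene by list, filled where the adjusted p is under 0.05, with the list median as a line. All lists but that of subunits outside the 10 hold called genes in both directions, and medians run from -0.69 for those subunits to 0.36 for membrane partners.

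The genes whose pattern over the 4 libraries lay nearest to that of Itgb1 were Plaa, Htatsf1 and Uhmk1, with Euclidean distances of 0.0491, 0.057 and 0.059 between mean-centred log2 CPM among 8664 genes compared. Plaa stood at 169.3 and 143.6 CPM in the controls and at 79.2 and 67.3 CPM in extravasated cells. The GC content of the principal transcript was 45.5% in Plaa, 46.4% in Htatsf1 and 44.3% in Uhmk1, beside 44.8% in Itgb1. Corrected with that transcript, Plaa stood at -0.45 and Htatsf1 at -0.58, both called (edgeR, adjusted p = 0.046 and 0.0292). Uhmk1 stood at 0.02 and was not called, and with merged exons none of these genes was called.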

How the data were processed

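The deposited file holds raw read counts per gene for 4 polyA libraries, with no normalization. Per the labels' protocols, RNA came from a miRNeasy column and libraries from a stranded TruSeq mRNA kit. The submitters' processing notes list STAR 2.5.3a, bcl2fastq 2.18.0.12 and GRCm38. The counter, annotation release and strand setting are not given in the sources used here. Symbols, positions and transcript properties came from GENCODE M21 (GRCm38). Of 53465 identifiers, 53360 matched.

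edgeR 4.0.16 (R 4.3.3) was run over all genes that passed its default filter (minimum count 10, minimum total 15), with TMM factors, no covariates and a robust quasi-likelihood fit, tested two-sided. The p-values were adjusted over all tested genes by Benjamini-Hochberg and called under 0.05. SE came from the fold change and F. With 1 library left out, the lone library is assumed to vary like the other group.

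TPM used the principal transcript (best APPRIS rank, then support level, then length). The correction smoothed each library's deviation in log2 CPM (prior count 2) on GC content and log2 length (mgcv 1.9.3, basis size 10), without mitochondrial genes, as an offset. DESeq2 1.42.0, limma-voom 3.58.1 and other filters and factors were alternatives. The uncorrected edgeR fit was tested on simulated counts without a GC or length trend. The correction was not tested on simulated data.

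The members, lists and tests were chosen with earlier results of these data known. Lists are described by counts and medians. From each list up to 6 called genes with the smallest adjusted p were named, beside all 10 members and the 3 genes nearest to Itgb1 among those with a mean of at least 10 CPM. Fn1, Vtn, Vcam1, Tnc and the other partner subunits were named outside this rule, after their values were seen. So were the genes marked that way in the text.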

Additional observations from a re-analysis of the deposited data

How the results depend on the processing

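The count of 4 members lower and 1 higher depended on the GC and length correction. The number lower was 1 with the principal transcript, 2 with the longest coding transcript and 2 with GC content alone, and the number higher was 0 in each of these and with merged exons. With the correction and without extravasated library 1 or 2, no member was called. Few of all tested genes were called in these fits, so they cannot tell the members from other genes. At an adjusted p under 0.01 the number higher was 0. Among ligands DESeq2 called 3 higher and 1 lower, and with unscaled totals 6 adaptors were higher. With 1 library left out and no correction, the number higher also changed, and so did the share of all tested genes called. The cause was not tested.

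The ratio of summed alpha TPM to Itgb1 moved from 0.388 to 0.292 in the controls and from 0.597 to 0.504 in extravasated cells with merged exon lengths. After the correction with the principal transcript, tried once the data had been seen, the ratio was 0.445 and 0.478. Where a call was involved, signs turned for Itgb5 (-0.52, called, with the correction and without not extravasated library 1) and for Itga4 with the correction (0.57, called, without not extravasated library 1, and 0.060 without extravasated library 1). Without a call before or after, signs also turned for Itgb5 with the correction (-0.27), and among single fits for Itga7 (up to 0.074) and Itga9 (up to 0.22). Itga4 also lost its call with RLE or upper quartile factors, without a filter, and when the suffix of the title entered as a term (log2 fold changes -1.71 to -1.55).

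Over all tested genes, 57.6% of calls were lower, and 41.3% after correction, where 1729 genes were called against 5551. The GC correction alone called 2204. Without extravasated library 2, edgeR called 1874 genes, and 2 with the correction (2115 at an unadjusted p under 0.05). The titles carry no replicate numbers shared between groups. They do share the suffix C, and with the suffix as an additive term 6165 genes were called. With 2 libraries a group, the fewest reads stood behind Itga3 and Itga7.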
